A study of Mus musculus with 28 samples.

Results

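Dendritic cells are few in a tumor, and 10 genes that mark their subsets or their mature state were followed here in whole mouse mesotheliomas. The genes were Xcr1, Clec9a, Batf3, Flt3, Zbtb46, Cd209a, Siglech, Fscn1, Il12b and Ccl22, chosen by name, and all 10 were found among the 55341 genes of each of the 2 deposited count matrices. All 10 also passed the filter on low counts, which kept 17916 genes in the matrix with the 5-FU groups and 17819 in the matrix with the cisplatin groups. The study asked how chemotherapy and immune checkpoint blockade (ICB) act together on tumors, and these genes show which dendritic cell transcripts differed between the treatments.

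Bulk RNA sequencing was done on 28 AB1-HA tumors, AB1-HA being a mouse mesothelioma cell line that was injected under the skin of the right flank of female BALB/c.AusBP mice. Each tumor came from a different mouse and was taken whole on day 7 of treatment. The control group received PBS (4 tumors). The ICB group received anti-CTLA-4 once and anti-PD-L1 3 times, at 100 µg of each antibody per dose (5 tumors). 5-FU, an antimetabolite, was given into the tail vein at 75 mg/kg (5 tumors), and cisplatin, a platinum drug that damages DNA, was given into the peritoneum at 6 mg/kg (4 tumors). The 5-FU+ICB group (5 tumors) and the cisplatin+ICB group (5 tumors) received the drug and the antibodies from the same day. All groups carried the same line at the same site, so that the tumors model 1 cell line in 1 strain. A transcript in a whole tumor can come from any of its cells, and fewer cells of a type and less RNA per cell cannot be told apart.

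Dendritic cells take up antigen in the tissue, mature, and present it to T cells. Conventional type 1 dendritic cells (cDC1) are known for presenting antigens of dead cells to CD8 T cells, conventional type 2 cells (cDC2) for presenting to CD4 T cells, and plasmacytoid dendritic cells (pDC) for making type I interferon. On maturation, dendritic cells of either conventional subset lose some subset markers, gain costimulatory molecules, and make cytokines and chemokines that act on T cells.

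Each tumor had between 23541733 and 33950805 counts, with a median of 28797552. Levels are given as CPM, counts scaled to a common library size after TMM normalization, on which 3 counts corresponded to between 0.0822 and 0.159 CPM, a limit that covers counting error only. The lowest count of any of the 10 genes was 9, for Batf3 in cisplatin tumor 2. In the tests, a gene was called higher or lower where edgeR's Benjamini-Hochberg adjusted p was under 0.05 and the log2 fold change was over 0.5 in size. On the correlation of log2 CPM with the rest of their group, 3 tumors stood apart, namely 5-FU+ICB tumors 2 and 5 and cisplatin+ICB tumor 1. Where the call or the size of a fold change given for the 10 genes rested on them, the value without them follows it. In a comparison of other groups they enter only through the filter, the scaling and the spread that the model shares. In ICB tumor 2 the summed CPM of 4 keratinocyte genes was 447, against 20.4 or less in the other 27 tumors. In 5-FU+ICB tumor 5 the summed CPM of 4 B cell genes was 770, against 103 or less in any tumor of the other groups, and Msln, the mesothelin gene, stood at 0.50 CPM, against between 34.4 and 654 CPM in the other 27 tumors. Wt1 stood between 0 and 2.78 CPM and Upk3b was at or near 0 in every tumor, so that of the mesothelial markers Msln, the keratin genes and Pdpn were the ones that could be followed. Ptprc, which encodes the leukocyte antigen CD45, had means of 92.1 ± 12.7 CPM in PBS tumors (SD, n = 4) and 365 ± 82.4 CPM in ICB tumors (SD, n = 5).

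To place the genes in the genome, the upstream sequences of those called higher in both ICB and 5-FU+ICB tumors against PBS were read from RefSeq (GRCm38.p6), where the RefSeq start lay within 100 bases of the start in the annotation. That left Clec9a, Il12b and Ccl22, and the 250 bases before each start are shown 5′ to 3′ on the plus strand, on which all these genes lie. The windows are chr6:129408612-129408861 for Clec9a, chr11:44399813-44400062 for Il12b and chr8:94745434-94745683 for Ccl22. Capitals mark matches to a TATA box (TATAAN) in Clec9a and Il12b and to a PU.1 core (GGAAGT) in Ccl22, on either strand.
Clec9a: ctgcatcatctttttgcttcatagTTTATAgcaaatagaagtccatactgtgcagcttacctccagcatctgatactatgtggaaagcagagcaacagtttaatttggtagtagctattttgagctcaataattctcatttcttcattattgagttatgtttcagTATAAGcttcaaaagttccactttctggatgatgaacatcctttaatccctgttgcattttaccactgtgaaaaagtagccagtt
Il12b: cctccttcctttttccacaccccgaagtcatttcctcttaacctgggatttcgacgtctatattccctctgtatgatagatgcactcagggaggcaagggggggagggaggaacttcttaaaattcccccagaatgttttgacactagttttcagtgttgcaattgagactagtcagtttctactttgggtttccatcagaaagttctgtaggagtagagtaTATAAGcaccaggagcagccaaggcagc
Ccl22: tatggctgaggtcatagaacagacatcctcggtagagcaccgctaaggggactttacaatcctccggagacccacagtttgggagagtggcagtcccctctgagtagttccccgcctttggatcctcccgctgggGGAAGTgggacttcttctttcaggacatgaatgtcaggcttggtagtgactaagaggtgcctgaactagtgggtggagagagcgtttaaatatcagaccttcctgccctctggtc
In Clec9a the TATA box matches began 226 bases (on the minus strand) and 85 bases before the start, and in Il12b the match began 28 bases before it. The PU.1 core of Ccl22 began 115 bases before its start.

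The same letters were searched on both strands of the 250-base windows of all 10 genes and of 32851 RefSeq promoters. A TATA box match was present for Xcr1, Clec9a, Cd209a, Fscn1 and Il12b, or 5 of 10 genes, and in 22.7% of all promoters. The PU.1 core, the binding sequence of a factor of myeloid and dendritic cells, was present for Xcr1, Batf3, Flt3, Cd209a, Siglech and Ccl22, or 6 of 10, and in 19.7% of all promoters. Both of these motifs were added after the results of the others were seen. An AP-1 site (TGANTCA) lay 61 bases before the RefSeq start of Zbtb46 and in 6.75% of promoters. The limit on the distance between RefSeq and annotated starts, set for the sequences shown, was not applied to this search. The RefSeq start minus the annotated start was −35038 bases for Zbtb46 and 567 bases for Batf3, both outside that limit. The windows of Zbtb46 and Batf3, and so their AP-1 and PU.1 matches, are therefore not at the annotated start. None of the 10 windows held the NF-kB consensus (7.25% of promoters), an ETS-IRF composite (2.3%) or an interferon response core (2.98%). A match is a description of the sequence and not a bound site.

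The cDC1 genes were examined first. Clec9a (chr6:129408862-129424763, plus strand) encodes a receptor for actin exposed by dead cells. In the order of the tumor numbers, which is kept throughout, Clec9a stood at 1.38, 1.49, 1.41 and 1.20 CPM in PBS tumors and at 11.3, 13.8, 12.8, 10.2 and 15.3 CPM in ICB tumors. Every ICB tumor was above every PBS tumor. The 5-FU tumors were at 1.70, 1.15, 4.19, 0.764 and 3.33 CPM and the cisplatin tumors at 2.19, 0.991, 1.01 and 1.87 CPM, both overlapping the PBS tumors. With both treatments, 5-FU+ICB tumors reached 7.59, 1.83, 7.46, 4.58 and 9.95 CPM and cisplatin+ICB tumors 1.22, 5.39, 1.92, 6.25 and 2.91 CPM. The first of these groups lay wholly above PBS and wholly below ICB, while the second overlapped PBS through tumor 1 and lay wholly below ICB. Clec9a rose by a log2 fold change of 3.23 in ICB against PBS (SE 0.50, edgeR adjusted p = 0.000368), by 2.22 in 5-FU+ICB against PBS (SE 0.48, adjusted p = 0.00233) and by 1.39 in cisplatin+ICB against PBS (SE 0.40, adjusted p = 0.0484). The last call was lost in 7 of the 9 fits that left out 1 tumor, and without the 3 tumors that stood apart the value was 1.67 with an adjusted p of 0.0036. Between the combinations and ICB alone, the log2 difference was −1.01 for 5-FU+ICB (adjusted p = 0.386) and −1.84 for cisplatin+ICB (adjusted p = 0.291), neither of which passed the edgeR test. For cisplatin+ICB, 0.291 was also the smallest adjusted p of any gene. DESeq2 called that difference, at −1.83 (adjusted p = 0.00166). The Clec9a gene overlaps Clec1b on the same strand, and its counts were whole numbers in all tumors but 1, so that few reads were split between transcripts of different genes.

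Batf3 (chr1:191097847-191108945, plus strand) encodes a transcription factor needed for cDC1 to develop, which is also made by some T cells. It stood at 0.487, 2.71, 0.614 and 0.963 CPM in PBS tumors and at 5.69, 12.5, 7.46, 4.08 and 5.52 CPM in ICB tumors. All ICB tumors were above all PBS tumors, although PBS tumor 2 was high for its group. Levels were 1.92, 1.19, 6.19, 0.703 and 3.87 CPM in 5-FU tumors and 1.91, 0.343, 0.704 and 2.34 CPM in cisplatin tumors, which overlapped PBS. In 5-FU+ICB tumors they were 7.71, 1.49, 5.84, 7.70 and 8.85 CPM and in cisplatin+ICB tumors 2.81, 3.00, 1.89, 5.23 and 3.10 CPM, so that tumor 2 of the former was the low one and 4 of 5 tumors of each combination lay above all PBS tumors. Batf3 rose by 2.55 in ICB against PBS on the log2 scale (SE 0.69, edgeR adjusted p = 0.00773) and by 2.40 in 5-FU+ICB against PBS (SE 0.69, adjusted p = 0.0102). In cisplatin+ICB against PBS the value was 1.43 (adjusted p = 0.136). The summed CPM of 5 T cell genes ran from 17.0 to 30.8 in PBS tumors, from 84.4 to 353 in ICB tumors and from 31.8 to 805 in 5-FU+ICB tumors, and its part in the Batf3 levels was not tested.

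Xcr1 (chr9:123852315-123862029, minus strand) encodes the receptor for the chemokine XCL1, which natural killer and CD8 T cells make. PBS tumors held 2.88, 3.36, 2.42 and 3.79 CPM and ICB tumors 8.38, 5.20, 14.9, 5.36 and 10.3 CPM, again without overlap. The 5-FU tumors split into 3 tumors within or below the PBS range and 2 above it, at 2.49, 2.73, 11.9, 2.02 and 8.14 CPM, and the cisplatin tumors were at 4.25, 2.02, 1.88 and 4.89 CPM. With ICB added, Xcr1 stood at 10.6, 2.26, 6.81, 5.91 and 21.6 CPM in 5-FU+ICB and in cisplatin+ICB tumors at 1.91, 3.44, 3.48, 6.09 and 6.91 CPM. Tumor 5 of 5-FU+ICB held the highest level of all 28 tumors and tumor 2 lay below the PBS tumors. The log2 fold change was 1.52 in ICB against PBS (SE 0.60), which missed the threshold with an edgeR adjusted p of 0.0516. It was 1.51 (adjusted p = 0.0194) without the 3 tumors that stood apart, when it was called. None of those tumors is in the ICB or PBS group. Xcr1 rose by 1.62 in 5-FU+ICB against PBS (SE 0.61, adjusted p = 0.0371). That call was kept in 3 of the 9 fits that left out 1 tumor and lost without any one of the 4 PBS tumors, without 5-FU+ICB tumor 1, and without tumor 5, where the value was 1.06 (adjusted p = 0.132). Without the 3 tumors that stood apart it was 1.34 (adjusted p = 0.0504), and with the replicate number as a block 1.03 (adjusted p = 0.122). Xcr1 counts were not whole in any of the 28 tumors, which shows that some of its reads were shared out among transcripts.

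**Figure D1:**
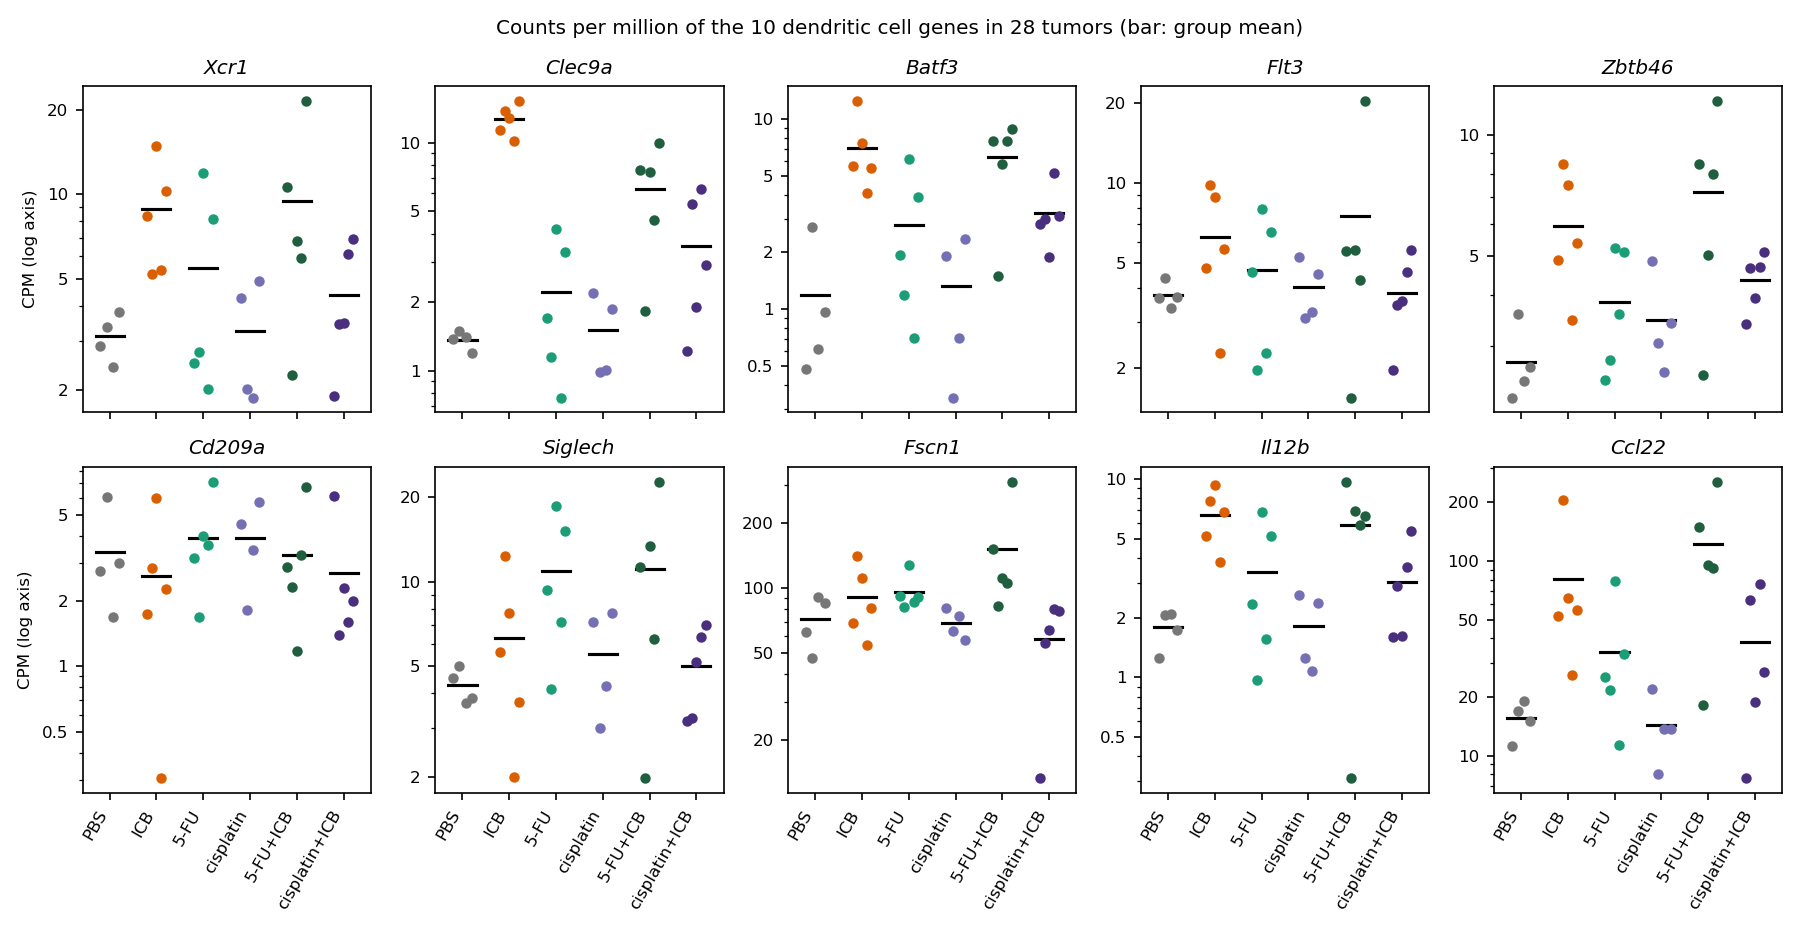
Level of each of the 10 genes in 28 tumors, in CPM on a log axis, with 1 point per tumor and a bar at the group mean. The 5 ICB tumors lie between 10.2 and 15.3 CPM of Clec9a, above the 4 PBS tumors at 1.20 to 1.49 CPM, whereas for Cd209a the groups overlap.

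Clec9a and Xcr1 mark the same subset, and their ratio within a tumor was compared between groups. This ratio was chosen after the values were seen, so its values are a description. The log2 CPM of Clec9a minus that of Xcr1 was −1.13 ± 0.36 in PBS (SD, n = 4), 0.62 ± 0.60 in ICB (SD, n = 5), −1.17 ± 0.37 in 5-FU (SD, n = 5), −1.03 ± 0.22 in cisplatin (SD, n = 4), −0.42 ± 0.45 in 5-FU+ICB (SD, n = 5) and −0.40 ± 0.74 in cisplatin+ICB (SD, n = 5). It was below 0 in every PBS, 5-FU and cisplatin tumor and above 0 in 4 of 5 ICB tumors, and since the counts were not scaled to gene length it is compared between tumors, not between the genes. The difference between ICB and PBS was 1.75, with no overlap (two-sided exact permutation p = 0.0159, adjusted p = 0.0582 over 11 comparisons). Of the smaller differences, 5-FU+ICB lay 0.74 above 5-FU (exact permutation p = 0.0159, adjusted p = 0.0582) and 1.04 below ICB in size (difference −1.04, exact permutation p = 0.0159, adjusted p = 0.0582), with overlap in both. It lay 0.71 above PBS (exact permutation p = 0.0397, adjusted p = 0.109). Cisplatin+ICB against ICB gave −1.02 (exact permutation p = 0.0556, adjusted p = 0.122). Both of these also overlapped. With 11 comparisons none passed an adjusted threshold of 0.05, and the smallest p this test allows for 5 tumors against 5 or 4 is 0.00794.

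**Figure D2:**
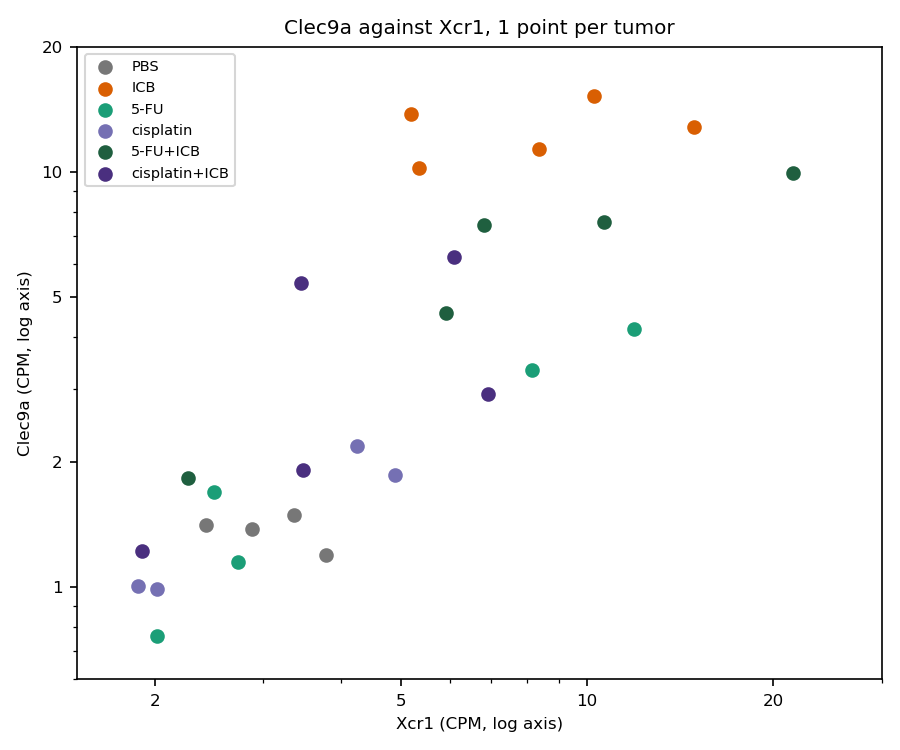
Clec9a against Xcr1 in CPM, both on log axes, with 1 point per tumor coloured by group. At Xcr1 levels of 5.20 to 14.9 CPM the ICB tumors hold 10.2 to 15.3 CPM of Clec9a, while the 5-FU tumor with 11.9 CPM of Xcr1 holds 4.19 CPM of Clec9a.

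Of the genes shared by conventional dendritic cells, Zbtb46 (chr2:181387762-181459426, minus strand) encodes a transcription factor of the conventional lineage that endothelial cells also make. It stood at 2.23, 3.59, 2.46 and 2.66 CPM in PBS tumors and at 4.91, 8.45, 7.50, 3.47 and 5.40 CPM in ICB tumors. Only ICB tumor 4 fell inside the PBS range. Levels in 5-FU+ICB tumors were 8.49, 2.54, 5.03, 7.98 and 12.2 CPM, of which tumor 2 overlapped PBS, and those in cisplatin+ICB tumors were 3.39, 4.69, 3.95, 4.70 and 5.11 CPM. Zbtb46 rose by 1.14 in ICB against PBS (log2, SE 0.40, edgeR adjusted p = 0.0288) and by 1.43 in 5-FU+ICB against PBS (SE 0.40, adjusted p = 0.00910). The call in ICB was lost in 5 of the 9 fits that left out 1 tumor, with adjusted p up to 0.0781. With 5-FU or cisplatin alone Zbtb46 ranged from 2.47 to 5.26 CPM and from 2.58 to 4.87 CPM, and neither differed from PBS by the test. Of 5 endothelial genes, 2 were called higher in ICB and 5 in 5-FU+ICB against PBS, and their part in the Zbtb46 levels was not tested.

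Flt3 (chr5:147330741-147400489, minus strand) encodes the receptor through which Flt3 ligand sustains dendritic cells. PBS tumors lay close together at 3.69, 4.37, 3.36 and 3.72 CPM, whereas ICB tumors were spread over 4.77, 9.80, 8.80, 2.28 and 5.63 CPM, 1 of them below and 4 above the PBS tumors. In 5-FU+ICB tumors the levels were 5.55, 1.55, 5.59, 4.30 and 20.4 CPM, from the lowest to the highest of all 28 tumors. No comparison of Flt3 levels passed the test, with log2 fold changes against PBS of 0.75 in ICB (edgeR adjusted p = 0.318), 0.31 in 5-FU, 1.00 in 5-FU+ICB (adjusted p = 0.178), 0.10 in cisplatin and 0.04 in cisplatin+ICB. The values were 0.46 in 5-FU+ICB (adjusted p = 0.434) and 0.26 in cisplatin+ICB without the 3 tumors that stood apart. An antisense gene overlaps Flt3, and whether the counting used strand is not given in the sources used here.

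Cd209a (chr8:3743397-3748984, minus strand) encodes a lectin of the DC-SIGN family that marks cDC2 and dendritic cells derived from monocytes. It stood at 2.76, 6.03, 1.70 and 2.99 CPM in PBS tumors and at 1.74, 2.86, 5.96, 0.305 and 2.27 CPM in ICB tumors. ICB tumor 4 held the lowest level of all 28 tumors and ICB tumor 3 lay at the top of the PBS range, so that the groups overlapped. In 5-FU+ICB tumors the levels were 2.87, 2.33, 1.18, 3.28 and 6.70 CPM, also overlapping PBS. Cd209a was the 1 gene of the 10 with values below 0 in all 3 groups that received ICB, at −0.37 in ICB, −0.05 in 5-FU+ICB and −0.32 in cisplatin+ICB against PBS (log2), none of which passed the test (smallest edgeR adjusted p = 0.648). They were −0.45 in 5-FU+ICB (adjusted p = 0.608) and −0.84 in cisplatin+ICB (adjusted p = 0.271) without the 3 tumors that stood apart.

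Siglech (chr7:55768178-55778925, plus strand) encodes a lectin used as a marker of pDC. Its level was 4.54, 4.98, 3.69 and 3.85 CPM in PBS tumors and 5.59, 12.4, 7.74, 2.01 and 3.70 CPM in ICB tumors, which overlapped. The 5-FU tumors stood at 9.37, 4.13, 18.7, 7.18 and 15.2 CPM, and 4 of the 5 were above all PBS tumors. The 5-FU+ICB tumors were at 11.3, 1.98, 13.4, 6.22 and 22.8 CPM, with tumor 2 below and the other 4 above the PBS tumors. Siglech was the gene nearest to a call in 5-FU against PBS, with a log2 fold change of 1.36 (SE 0.60, edgeR adjusted p = 0.0997). It was called without the 3 tumors that stood apart (1.36, adjusted p = 0.0411), none of which is in the 5-FU or PBS group. In 5-FU+ICB against PBS the value was 1.40 (SE 0.60, adjusted p = 0.065). Cisplatin tumors (3.01 to 7.76 CPM) and cisplatin+ICB tumors (3.18 to 7.03 CPM) overlapped PBS.

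The genes of mature dendritic cells differed among themselves. Ccl22 (chr8:94745590-94751699, plus strand) encodes a chemokine that attracts T cells bearing CCR4, among them regulatory T cells, and is made by mature dendritic cells and some macrophages. It was at 11.2, 17.0, 19.1 and 15.1 CPM in PBS tumors and at 52.4, 205, 64.7, 26.0 and 55.9 CPM in ICB tumors, all of them above PBS and ICB tumor 2, which had the high keratinocyte sum, far above the others. Of the ICB tumors, it also had the highest Batf3, Flt3, Zbtb46, Siglech and Fscn1. The 5-FU tumors held 25.2, 21.6, 79.0, 11.3 and 33.2 CPM and the cisplatin tumors 22.0, 8.04, 13.6 and 13.6 CPM. The 5-FU+ICB tumors held 149, 18.1, 94.9, 92.3 and 256 CPM, where tumor 2 was within the PBS range and the other 4 were above it. The cisplatin+ICB tumors, at 7.63, 63.3, 18.8, 76.0 and 26.8 CPM, ran from below to above the PBS range. Ccl22 rose by 2.42 in ICB against PBS (log2, SE 0.70, edgeR adjusted p = 0.0112) and by 3.01 in 5-FU+ICB against PBS (SE 0.72, adjusted p = 0.00378), the largest rise of the 10 genes in that comparison. Without ICB tumor 2 the value in ICB was 1.75 (adjusted p = 0.0416). In cisplatin+ICB against PBS the value was 1.32 (adjusted p = 0.200), and 1.66 without the 3 tumors that stood apart, when it was called.

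Il12b (chr11:44400063-44414033, plus strand) encodes the chain shared by the cytokines IL-12 and IL-23, and IL-12 is known to drive interferon gamma production by T and natural killer cells. PBS tumors were at 1.26, 2.07, 2.10 and 1.73 CPM and ICB tumors at 5.15, 7.77, 9.32, 3.81 and 6.84 CPM, with no overlap. Levels in 5-FU+ICB were 9.72, 0.310, 6.93, 5.88 and 6.55 CPM, and tumor 2 held 0.310 CPM from 10 counts, the lowest level of all tumors. The 5-FU tumors (2.36, 0.971, 6.86, 1.56 and 5.16 CPM) and cisplatin+ICB tumors (1.59, 2.90, 1.62, 3.59 and 5.48 CPM) overlapped PBS. Il12b rose by 1.90 in ICB against PBS (log2, SE 0.67, edgeR adjusted p = 0.0302) and by 1.75 in 5-FU+ICB against PBS (SE 0.67, adjusted p = 0.0407). The call in ICB was lost in 6 of the 9 fits that left out 1 tumor (adjusted p 0.0538 to 0.082), and that in 5-FU+ICB in 8 of 9, although without the 3 tumors that stood apart it was 2.10 (adjusted p = 0.0043).

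Fscn1 (chr5:142960343-142973185, plus strand) encodes fascin, a protein that bundles actin in the processes of mature dendritic cells and is also made by tumor and endothelial cells. It stood at 63.1, 47.7, 91.4 and 85.1 CPM in PBS tumors and at 68.8, 142, 112, 55.0 and 80.9 CPM in ICB tumors, which overlapped. In 5-FU+ICB tumors the level was 153, 83.0, 111, 105 and 311 CPM and in cisplatin+ICB tumors 13.3, 56.2, 64.1, 80.3 and 78.4 CPM, without overlap between the combinations. Tumor 5 of the former held the highest and tumor 1 of the latter the lowest level of all 28 tumors, and both are among the tumors that stood apart. Fscn1 rose by 1.13 in 5-FU+ICB against PBS (log2, SE 0.35, edgeR adjusted p = 0.0153), with 0.69 (adjusted p = 0.0514) without tumor 5. The summed CPM of the 5 endothelial genes ran from 73.9 to 140 in PBS and from 171 to 677 in 5-FU+ICB tumors. Its part in the Fscn1 levels was not tested. Between 5-FU+ICB and cisplatin+ICB the log2 difference was 1.38 (adjusted p = 0.0655), or 0.84 (adjusted p = 0.269) without the 3 tumors that stood apart.

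**Figure D3:**
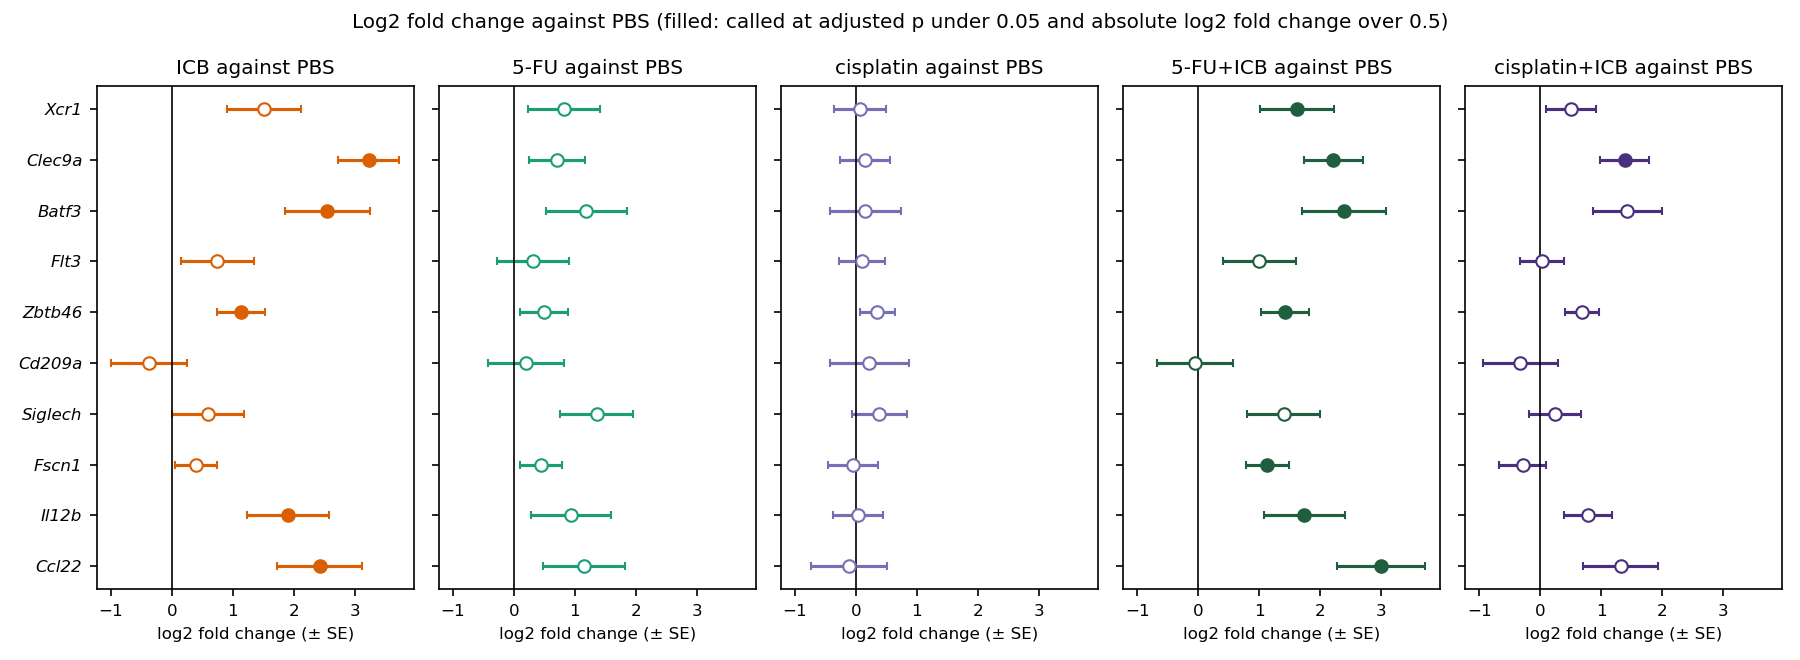
Log2 fold change against PBS of the 10 genes, with 1 panel per treatment and whiskers of 1 SE. Filled points, which passed the test, number 5 in ICB, 7 in 5-FU+ICB, 1 in cisplatin+ICB and 0 with either drug alone.

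Counted over the 10 genes, ICB against PBS gave 5 higher and 0 lower. These were Clec9a, Batf3, Ccl22, Il12b and Zbtb46. In this comparison 37.8% of all genes tested were called and 19.0% were called higher, so that calls were common in the background. The median log2 fold change was 1.33 over the 10 genes and −0.03 over all genes. In 5 of the 10 genes (Xcr1, Clec9a, Batf3, Il12b and Ccl22) the ICB and PBS tumors did not overlap, and the same held for 37.4% of all genes. Against PBS, 5-FU+ICB gave 7 of the 10 genes higher and 0 lower, beside 40.7% of all genes called and 21.9% called higher. Groups did not overlap for 1 of the 10 genes, Clec9a, and for 25.5% of all genes. The 5 comparisons with PBS share the same 4 PBS tumors, so the agreement between their lists is not independent.

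With 1 drug alone, none of the 10 genes was called. In 5-FU against PBS, all 10 log2 fold changes were above 0, 1 gene (Siglech) had an unadjusted p under 0.05 in edgeR, and DESeq2 also called 0, beside 23.0% of all genes called by edgeR. That share ran from 7.87% to 25.9% with 1 tumor left out. Of all 17916 genes, 7245 had an unadjusted p under 0.05. In cisplatin against PBS no gene of the 10 had an unadjusted p under 0.05, DESeq2 called 0, and the gene with the smallest p was Zbtb46 (log2 0.35, adjusted p = 1.00, and 0.14 without cisplatin tumor 1). Over all genes edgeR called 0 there, or 0%, with 317 genes at an unadjusted p under 0.05 and 4 called by DESeq2. The 2 drugs were compared in a model of all 6 groups. There edgeR called 0 of the 10 genes, 0 had an unadjusted p under 0.05 and DESeq2 called 0. Of all 18521 genes, edgeR called 0.362% and 2876 had an unadjusted p under 0.05. Among the 10, the gene with the smallest p was Ccl22, 1.25 higher with 5-FU on the log2 scale (adjusted p = 0.371), and 0.68 higher without 5-FU tumor 3 (adjusted p = 0.697).

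Cisplatin+ICB against PBS gave 1 higher gene of 10, Clec9a, beside 6.10% of all genes called and 4.70% called higher, and DESeq2 also called 1. Batf3, Zbtb46 and Ccl22 had an unadjusted p under 0.05 in edgeR without passing the adjustment. Of all 17819 genes, 4204 had an unadjusted p under 0.05. Without the 3 tumors that stood apart, 3 genes were called, namely Clec9a, Zbtb46 (0.82) and Ccl22, beside 35.3% of all genes called and 18.2% called higher in the same fit.

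The combinations were also compared with their parts. In 5-FU+ICB against 5-FU, edgeR called 0 of the 10 genes, beside 0.0112% of all genes called. At an unadjusted p under 0.05 were 4 of the 10 (Clec9a, Zbtb46, Fscn1 and Ccl22), beside 2983 of all 17916 genes. Clec9a came nearest, at 1.51 (adjusted p = 0.148), and was the 1 gene that DESeq2 called. In 5-FU+ICB against ICB, edgeR called 0, with 2 at an unadjusted p under 0.05 (Clec9a lower, Fscn1 0.73 higher, or 0.42 without the 3 tumors that stood apart) and 0 by DESeq2. Of all 17916 genes, edgeR called 0.229% there and 1947 had an unadjusted p under 0.05. Cisplatin+ICB against cisplatin gave 0, with 3 at an unadjusted p under 0.05 (Clec9a at 1.23 with an adjusted p of 0.158, Batf3 and Ccl22) and 1 by DESeq2, Clec9a. In the fit without the 3 tumors that stood apart, edgeR called Clec9a (adjusted p = 0.0155) and Ccl22 (1.76) there, beside 11.9% of all genes. With all tumors, over all genes edgeR called 0 (0%), with 2530 at an unadjusted p under 0.05 and 767 called by DESeq2. Cisplatin+ICB against ICB gave 0 by edgeR, with 4 at an unadjusted p under 0.05 (Clec9a, Xcr1, Batf3 and Il12b, all lower) and 1 by DESeq2, Clec9a. The edgeR count over all genes was again 0 (0%), beside 2839 at an unadjusted p under 0.05 and 56 by DESeq2. Between the combinations edgeR called 0 of 10, beside 0.297% of all genes, and DESeq2 called 1, Fscn1. At an unadjusted p under 0.05 were 5 of the 10, beside 4754 of all 18521 genes.

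Whether ICB had a different effect with a drug than without it was tested as an interaction. For 5-FU with ICB, edgeR called 0 of the 10 genes, 1 (Clec9a) had an unadjusted p under 0.05 and DESeq2 called 0. Of all 17916 genes, edgeR called 0.0893% and 4283 had an unadjusted p under 0.05. The interaction of Clec9a was −1.72 on the log2 scale (SE 0.63, adjusted p = 0.113). For cisplatin with ICB, edgeR called 0 of 10 and 0% of all genes, with 1273 genes at an unadjusted p under 0.05 and 1 by DESeq2. Clec9a was the 1 gene of the 10 with an unadjusted p under 0.05, at −1.99 (adjusted p = 0.564), and DESeq2 called 0 of the 10.

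The levels of all groups were also put in order of their means. Xcr1, Flt3, Zbtb46, Siglech, Fscn1 and Ccl22 had their highest mean in 5-FU+ICB, Clec9a, Batf3 and Il12b in ICB, and Cd209a in 5-FU. The lowest mean was in PBS for Xcr1, Clec9a, Batf3, Flt3, Zbtb46, Siglech and Il12b, in cisplatin for Ccl22, in cisplatin+ICB for Fscn1 and in ICB for Cd209a. Without the 3 tumors that stood apart, the highest mean was in ICB for Xcr1 (8.83 CPM against 7.79 in 5-FU+ICB) and Flt3 (6.26 against 5.15), in 5-FU for Siglech (10.9 against 10.3 in 5-FU+ICB), and in 5-FU+ICB for Batf3 (7.08 against 7.05 in ICB) and Il12b (7.51 against 6.58), while the other 5 genes kept their highest group. The lowest mean was then in cisplatin for Fscn1 and in cisplatin+ICB for Cd209a. With all tumors included, no pair of groups that were neighbours in such an order differed by the test, the smallest adjusted p being 0.243, for Clec9a between 5-FU+ICB and cisplatin+ICB.

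Since leukocytes as a whole differed between the groups, each gene was next set against Ptprc in the same tumor. Ptprc itself rose by 2.00 in ICB (log2, SE 0.44, edgeR adjusted p = 0.00231), by 2.15 in 5-FU+ICB (adjusted p = 0.00174) and by 1.41 in cisplatin+ICB (adjusted p = 0.0238) against PBS, with 1.09 in 5-FU (adjusted p = 0.0654) and 0.31 in cisplatin (adjusted p = 1.00). The measure was log2 CPM minus log2 CPM of Ptprc, tested with limma with the same thresholds. On this scale a gene that did not follow Ptprc moved down when Ptprc rose, and the median of all genes was −2.03 in ICB, −1.97 in 5-FU+ICB, −1.39 in cisplatin+ICB, −0.97 in 5-FU and −0.25 in cisplatin against PBS.

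In ICB against PBS, 1 of the 10 genes was higher relative to Ptprc and 5 were lower. Clec9a was the higher one, at 1.51 ± 0.268% of the Ptprc count in PBS tumors (SD, n = 4) and 3.55 ± 0.482% in ICB tumors (SD, n = 5). The log2 difference was 1.18 (SE 0.30, limma adjusted p = 0.00203), and the tumors of the groups did not overlap. Calls in this direction were rare in the background, at 1.38% of all genes. The lower ones were Cd209a (−2.64, adjusted p = 0.000615), Siglech (−1.65, adjusted p = 0.00128), Fscn1 (−1.65, adjusted p = 0.00118), Flt3 (−1.41, adjusted p = 0.00179) and Zbtb46 (−0.91, adjusted p = 0.0141). Of all genes 78.8% were called on this scale and 77.4% were called lower, so that 5 of 10 is no more than the background. In all 6 genes called, the ICB and PBS tumors did not overlap, as in 72.4% of all genes. The calls of these 6 genes held in every alternative that was tried. Xcr1 (−0.57), Batf3 (0.73), Il12b (−0.16) and Ccl22 (0.08) did not pass the test.

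Cd209a moved furthest. It was 3.53 ± 1.52% of the Ptprc count in PBS tumors (SD, n = 4) and 0.654 ± 0.441% in ICB tumors (SD, n = 5), while its CPM had not passed the test. Its log2 difference of −2.64 stood beside a median of −2.03 over all genes. The difference was −2.18 without ICB tumor 4, where Cd209a had 10 counts. Clec9a in the other groups stood at 1.07 ± 0.249% of Ptprc in 5-FU (SD, n = 5), 1.31 ± 0.0705% in cisplatin (SD, n = 4), 1.63 ± 0.368% in 5-FU+ICB (SD, n = 5) and 1.43 ± 0.525% in cisplatin+ICB (SD, n = 5). All 5 ICB tumors lay above every one of the other 23 tumors on this scale, between −5.10 and −4.58 against −5.51 or less.

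**Figure D4:**
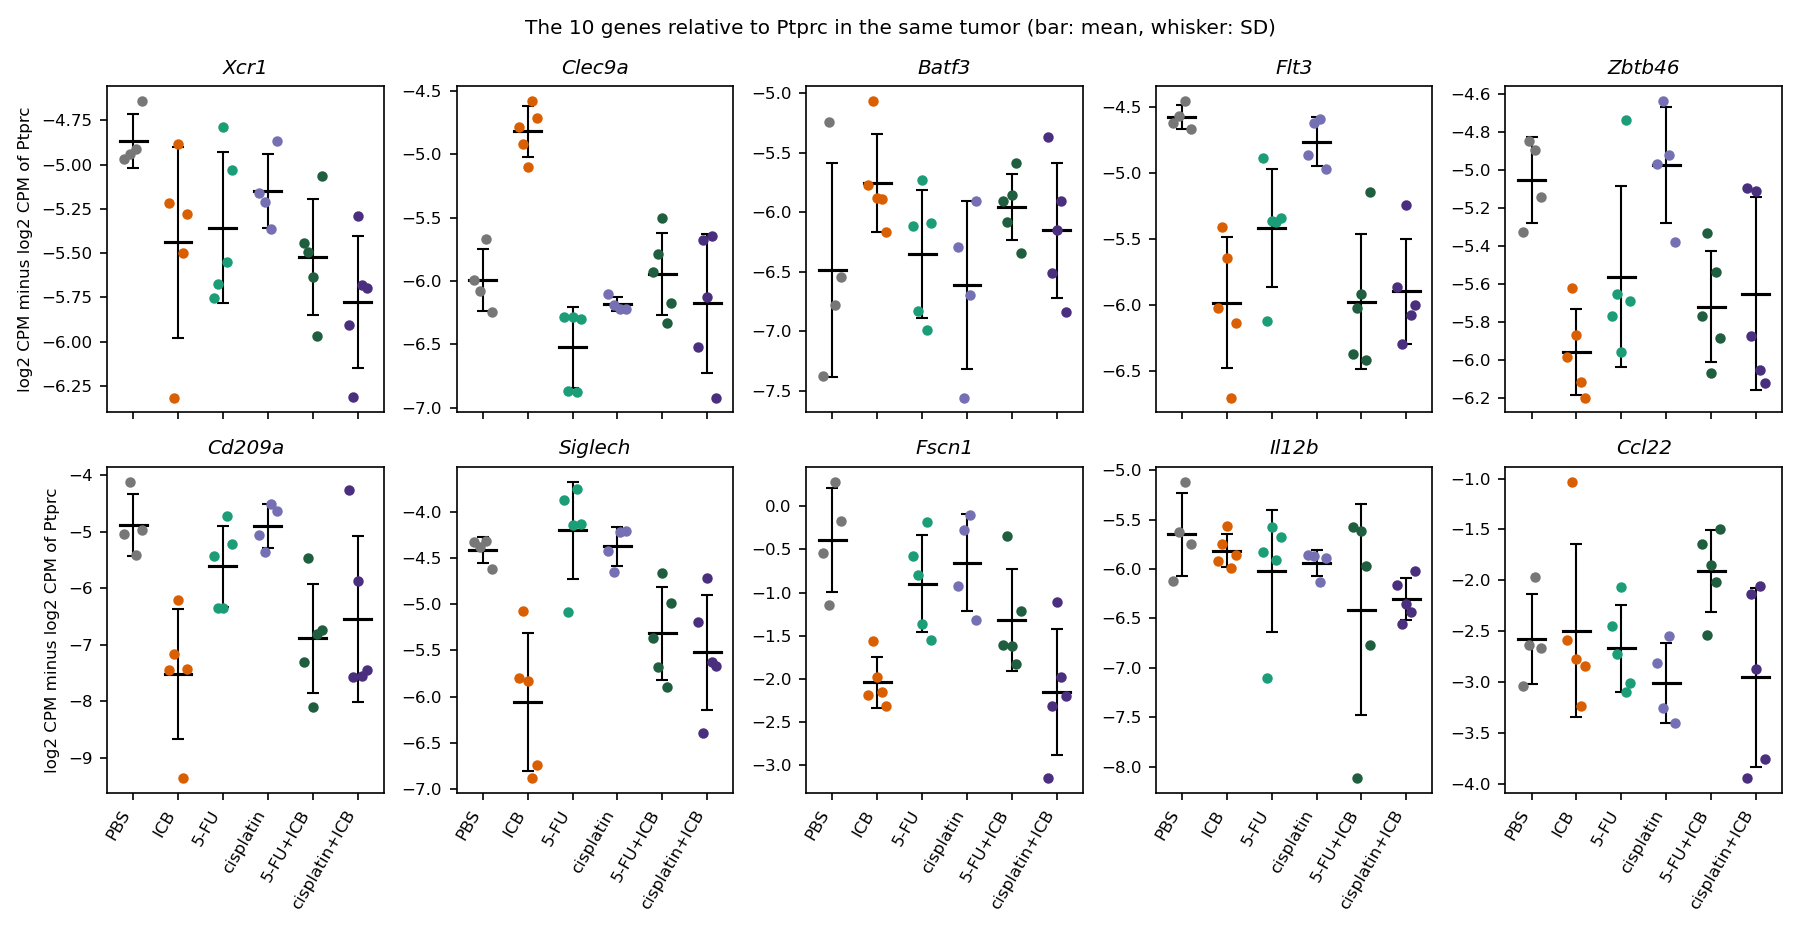
Log2 CPM of each gene minus log2 CPM of Ptprc in the same tumor, with 1 point per tumor, a bar at the group mean and whiskers of 1 SD. The ICB tumors are the highest group for Clec9a, with a mean of −4.82 against −6.00 in PBS, and the lowest for Cd209a, with −7.52 against −4.88.

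Relative to Ptprc, 4 of the 10 genes were lower and 0 higher in 5-FU+ICB against PBS. These were Cd209a (−2.00, limma adjusted p = 0.00402), Flt3 (−1.40, adjusted p = 0.00193), Fscn1 (−0.93, adjusted p = 0.0376) and Siglech (−0.91, adjusted p = 0.0446), beside 77.2% of all genes called and 75.3% called lower. With 1 tumor left out, the calls of Cd209a and Flt3 were kept in 9 of 9 fits, that of Fscn1 in 3 (lost without PBS 1, 3 or 4 or 5-FU+ICB 1, 3 or 4) and that of Siglech in 2 (kept only without 5-FU+ICB 3 or 5). In cisplatin+ICB against PBS, 5 were lower, namely Fscn1 (−1.76) and Flt3 (−1.32), both with an adjusted p of 0.00683, Siglech (−1.11, adjusted p = 0.0218), Xcr1 (−0.91, adjusted p = 0.0263) and Cd209a (−1.66, adjusted p = 0.0282). Of all genes 65.3% were called there and 64.6% called lower. Fscn1 and Flt3 were kept in 9 of 9 such fits, Siglech in 7 (lost without PBS 3 or cisplatin+ICB 2), Xcr1 in 6 (lost without PBS 3 or 4 or cisplatin+ICB 2) and Cd209a in 5 (lost without PBS 2 or cisplatin+ICB 2, 4 or 5). Cisplatin+ICB against cisplatin gave 4 lower, Fscn1 (−1.50), Flt3 (−1.14), Siglech (−1.14) and Cd209a (−1.65), with adjusted p between 0.0377 and 0.0488, beside 33.5% called and 33.1% called lower. Most such fits lost these calls, which were kept in 4 of 9 for Fscn1 and Flt3, 3 for Siglech and 2 for Cd209a, and all 4 were lost without cisplatin 2 or 3 or cisplatin+ICB 2, 4 or 5. With the replicate number as a block 0 of them were called, beside 0.00561% of all genes. Without cisplatin+ICB tumor 1, which stood apart, 7 genes were called lower against PBS, Zbtb46 and Il12b in addition, beside 71.6% of all genes called lower, and 5 against cisplatin, Zbtb46 in addition, beside 66.9%. In both comparisons with PBS the share of the 10 genes called lower was below that of all genes.

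No other comparison gave a call relative to Ptprc. Limma called 0 of the 10 genes in 5-FU against PBS (1 with an unadjusted p under 0.05, Flt3 at −0.84 with an adjusted p of 0.0861, and 17.5% of all genes called), and 0 in cisplatin against PBS (0 under 0.05, 0% of all genes). Over all genes, 7518 of 17915 and 119 of 17818 were under 0.05, in that order. The share of 17.5% ran from 0.0764% to 35.1% with 1 tumor left out. In 5-FU+ICB against 5-FU it called 0 (2 under 0.05, Siglech at −1.12 and Cd209a at −1.27, both with an adjusted p of 0.134, and 0% of all genes), and in 5-FU+ICB against ICB 0 (1 under 0.05, and 0.100% of all genes). Of all 17915 genes, 6466 had an unadjusted p under 0.05 against 5-FU and 1097 against ICB. In cisplatin+ICB against ICB it called 0 (1 under 0.05, and 0.0112%), in 5-FU against cisplatin 0 (0 under 0.05, and 0.0270%) and between the combinations 0 (2 under 0.05, Fscn1 and Ccl22, and 0.0594%). Over all genes, 3941 of 17818, 2448 of 18520 and 2621 of 18520 were under 0.05, in that order. The 1 of the 10 genes under 0.05 in both comparisons of a combination with ICB was Clec9a, which was lower in the combination, at −1.13 in 5-FU+ICB (adjusted p = 0.168) and −1.36 in cisplatin+ICB (adjusted p = 0.221). No DESeq2 test exists for this measure.

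Other genes of the same subsets were counted from lists that were written with earlier results of these data known. In ICB against PBS, where 19.0% of all genes were called higher, 6 of 7 other cDC1 genes were higher and 0 lower, with a median log2 fold change of 1.53. That median was below the rise of Ptprc (2.00), and the counts of these lists are not relative to Ptprc. They included Irf8 (2.31, edgeR adjusted p = 0.00126), Id2 (1.85, adjusted p = 0.00306), both transcription regulators of cDC1, Wdfy4 (1.73, adjusted p = 0.00411), needed for cross-presentation, and Tlr3 (0.74, adjusted p = 0.00201), a sensor of double-stranded RNA. Irf8, which macrophages and B cells also make, stood at 40.9, 62.2, 35.1 and 45.6 CPM in PBS tumors and 193, 296, 240, 149 and 248 CPM in ICB tumors, without overlap. All 6 other cDC2 genes tested were higher (median 2.03), with Irf4 at 3.03 (adjusted p = 0.00309), Clec10a at 2.63 (adjusted p = 0.0139), Sirpa at 1.80 (adjusted p = 0.00155) and Notch2 at 1.05 (adjusted p = 0.0102), while Clec4a4 had too few counts to be tested. The cDC2 genes thus rose where Cd209a did not, and macrophages make several of them, such as Sirpa and Clec10a. Of 12 other pDC genes, 3 were higher (median 0.90), namely Tlr9 (3.38), Tlr7 (2.29) and Pacsin1 (2.17), of which Tlr7 and Tlr9, sensors of nucleic acids, are also made by macrophages and B cells. Tcf4, the transcription factor that specifies pDC, was −0.23 (adjusted p = 0.215).

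The summed CPM of 8 macrophage genes ran from 1628 to 2390 in PBS tumors and from 3527 to 9795 in ICB tumors, all 8 being called higher, and their part in the dendritic cell lists was not tested. Of 16 other genes of mature dendritic cells, 11 were higher in ICB against PBS and 0 lower (median 1.70), led by Cd274 (3.99, edgeR adjusted p = 6.16e-06) and Pdcd1lg2 (5.40, adjusted p = 0.000361), the ligands of PD-1, with Cd40 (2.58, adjusted p = 0.000701), a costimulatory receptor, and Il15ra (1.67, adjusted p = 0.000235), which presents IL-15. Cd274 encodes the target of the anti-PD-L1 antibody, and stood at 9.81, 11.9, 13.5 and 12.8 CPM in PBS tumors and 162, 253, 153, 160 and 208 CPM in ICB tumors. The groups did not overlap. Tumor cells, macrophages and T cells also make these ligands, and the cell that carried the transcript was not measured.

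The ligands, receptors and partner chains of the 10 genes were counted next. Of the 14 tested, 8 were higher in ICB against PBS and 0 lower (median 2.37). Ifng, the gene of interferon gamma that IL-12 induces, rose by 5.26 (edgeR adjusted p = 2.44e-05), from 0.203, 0.407, 0.398 and 0.365 CPM in PBS tumors to 12.4, 16.4, 14.5, 8.32 and 14.0 CPM in ICB tumors. The receptor chains Il12rb1 (2.76, adjusted p = 6.06e-05) and Il12rb2 (4.41, adjusted p = 0.000163) and the shared GM-CSF receptor chain Csf2rb (2.67, adjusted p = 0.000439) rose as well. Il12a, the second chain of IL-12, was near the counting limit, with 0, 0.170, 0 and 0.133 CPM in PBS tumors and 0.170, 1.00, 0.118, 0.335 and 0.189 CPM in ICB tumors, and was not called. Xcl1, the ligand of Xcr1, was 0.38 (adjusted p = 0.611), and Ccr4, the receptor of Ccl22, was 1.18 (adjusted p = 0.122). Flt3l, the ligand of Flt3, rose by 0.57 (adjusted p = 0.0490), from 8.19, 13.5, 7.55 and 9.90 CPM to 14.5, 16.2, 13.6, 15.6 and 11.9 CPM.

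The lists were counted in the same way under the other treatments. In 5-FU against PBS, 2 of 7 cDC1, 5 of 6 cDC2, 4 of 12 pDC, 4 of 16 mature and 7 of 14 partner genes were higher and 0 lower, beside 9.98% of all genes called higher, although none of the 10 genes themselves was called. Among them were Klf4 (2.64, edgeR adjusted p = 0.00484) and Irf4 (2.32, adjusted p = 0.0216) of the cDC2 list, and Klk1 (1.86, adjusted p = 0.0419) and Tlr9 (2.40, adjusted p = 0.0123) of the pDC list. Ccr4 was called in 5-FU (1.89, adjusted p = 0.0317). In 5-FU+ICB against PBS the counts were 5 of 7, 6 of 6, 7 of 12, 13 of 16 and 11 of 14, with 0 lower, beside 21.9% of all genes called higher, and 3 of 4 B cell genes were also called. In cisplatin+ICB against PBS they were 2 of 7, 1 of 6, 0 of 12, 5 of 16 and 4 of 13, beside 4.70%. Irf8 (1.46, adjusted p = 0.0253) and Irf4 (2.18, adjusted p = 0.0394) were among these, as was Cd274 (3.25, adjusted p = 0.0116). In cisplatin against PBS, edgeR called 0 of the 54 genes tested from these lists, 0 had an unadjusted p under 0.05 and DESeq2 called 0. In 5-FU+ICB, edgeR called 0 of 55 against 5-FU (29 at an unadjusted p under 0.05, and 9 by DESeq2) and 0 against ICB (9, and 1 by DESeq2). In cisplatin+ICB it called 0 of 54 against cisplatin (23, and 13 by DESeq2) and 0 against ICB (14, and 0 by DESeq2). In the same order, 2983 and 1947 of all 17916 genes, and 2530 and 2839 of all 17819, had an unadjusted p under 0.05.

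Across tumors, with the group means removed, the 10 genes were compared with every other gene of the joined matrix. The values are Pearson r of log2 CPM over 28 tumors, given as a description, since the tumors share their library depth and their leukocyte content. Among the 45 pairs of the 10 genes, r ran from 0.0528 (Cd209a with Fscn1) to 0.926 (Flt3 with Siglech), with a median of 0.743, or 0.651 without the 3 tumors that stood apart. Clec9a and Xcr1 had an r of 0.814 (0.720 without those tumors), and Clec9a and Ccl22 0.872 (0.773). Xcr1 ranked 423 among 18520 genes by its r with Clec9a, and Ptprc had a higher r with Clec9a (0.899) and with Xcr1 (0.907) than they had with each other. The median r of a gene with the other 9 was lowest for Cd209a (0.377) and next lowest for Fscn1 (0.581), and without those tumors it was lowest for Fscn1 (0.506) and next lowest for Cd209a (0.525).

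The 3 genes most like each were then listed for the genes other than Zbtb46. Siglech went with Klk1 (0.967), Dntt (0.932) and Flt3 (0.926), and Klk1 is itself on the pDC list. Cd209a went with Cd209e (0.898), Cd209f (0.883) and Slc39a8 (0.881), the former pair being of its own gene family. Clec9a went with Arhgap25 (0.945), Dnase1l3 (0.933) and Cd74 (0.918), and Xcr1 with Ighm (0.953), Lmo2 (0.941) and Klhl6 (0.940). Ighm encodes the heavy chain of immunoglobulin M of B cells. Ccl22 went with Itgax (0.945), the integrin CD11c of dendritic cells, H2-M2 (0.939) and Tnfrsf8 (0.937). For Batf3 they were Mapkapk3 (0.922), Nrros (0.919) and Gpr171 (0.919). For Flt3 they were Atp1b1 (0.944), Spib (0.941), a transcription factor of pDC and B cells, and Mme (0.938). Il12b went with Ahrr (0.945), Penk (0.941) and Cebpa (0.937), and Fscn1 with Ccnd3 (0.947), Adgrg1 (0.945) and Adcy4 (0.945). Without the 3 tumors that stood apart, the first of the listed genes kept an r of 0.945 for Xcr1, 0.908 for Clec9a, 0.947 for Siglech and 0.916 for Batf3, where no gene then had a higher r. For Cd209a (0.919), Flt3 (0.924) and Ccl22 (0.904) at most 2 genes had a higher r, for Fscn1 (0.840) 19 had and for Il12b (0.878) 63 had. Of the others, Spib then had 28 and Mme 20 genes above it for Flt3, Cd74 had 30 for Clec9a, and Adgrg1 had 41 and Adcy4 130 for Fscn1.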

How the data were processed

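Whole AB1-HA tumors from 28 mice were sequenced as single-end reads of total RNA. The submitters' processing notes name bcl2fastq 2.20.0.422 and kallisto 0.46.0, and the study's methods state that reads were aligned to GRCm38/mm10 with kallisto and that tximport made the matrices. The authors deposited estimated counts per gene without normalization, in 2 matrices of 55341 genes that share the same 9 PBS and ICB tumors with identical values. Of the values 23.7% were not whole numbers (tolerance 1e-06), and counts were rounded before testing. The authors' statement that transcripts with low counts were removed could not be matched to the matrices, in which 18658 genes had 0 counts in all tumors.

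The 10 genes and all gene lists were chosen with earlier results of these data known. Genes with low counts were removed with filterByExpr, libraries were scaled by TMM, and groups were compared with the quasi-likelihood test of edgeR 4.0.16 (R 4.3.3) in a model of the 4 groups of a matrix, or of all 6 groups (18521 genes) for the drugs and the combinations against each other. The p-values were adjusted over all genes tested, and fold changes are log2. Levels relative to Ptprc (log2 CPM with a prior count of 2, minus that of Ptprc) were tested with limma 3.58.1. The study used DESeq2, and version 1.42.0 of it was an alternative here. Other alternatives were the size factors of DESeq2, no filter, the replicate number as a block and a prior count of 0.5. So were 6 leukocyte genes in place of Ptprc, models of other groups, no fold threshold and each tumor left out. The fits without the 3 tumors that stood apart (1 minus Pearson r to the rest of the group over 0.05) and the Clec9a to Xcr1 ratio were chosen after the data were seen. The fitting code was tested on simulated counts.

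All 10 genes are named with values. From each other list up to 4 called genes with the smallest adjusted p are named, and for likeness the 3 genes with the highest r. The likeness genes of Zbtb46 are not reported here. Named besides these, after their values were seen, were Ighm, Klk1 and Spib as likeness genes with a known role, and the partner, pDC and stromal genes Xcl1, Flt3l, Il12a, Ccr4, Tcf4, Clec4a4, Msln, Wt1, Upk3b and Pdpn. Gene positions are from GENCODE M21 (GRCm38). Counting depth ranged from 23541733 to 33950805 per tumor. The labels give 4 cisplatin tumors, and these were used.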

Additional observations from a re-analysis of the deposited data

Results flagged for a closer look

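Each of the 10 genes was examined for a tumor far from the rest of its group, by Dixon's test at the 95% level, in 60 sets of 4 or 5 tumors. Chance flags about 1 in 20 such sets, and 4 were found. Batf3 at 1.49 CPM in 5-FU+ICB tumor 2 and Il12b at 0.310 CPM in the same tumor were far below the other 4 tumors of the group, and Ptprc was also low in this tumor, at 105 CPM. Fscn1 at 13.3 CPM in cisplatin+ICB tumor 1 was far below the rest of its group, in a tumor with 654 CPM of Msln. Fscn1 at 128 CPM in 5-FU tumor 3 was far above the other 5-FU tumors, and this tumor also held the most Ptprc of its group, at 331 CPM. What part the leukocyte or tumor cell content had in these values was not tested.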

How the results depend on the processing

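None of the 13 fold changes and 19 differences relative to Ptprc that passed the test changed sign under any alternative or with 1 tumor left out. Of the values that did not pass, 22 of 117 fold changes (0.32 or less in size) and 11 of 111 relative differences (0.59 or less) changed sign in at least 1 alternative, those with 1 tumor left out not counted. Without the 3 tumors that stood apart, the numbers of the 10 genes called that moved most were 1 in 5-FU against PBS (Siglech, beside 29.4% of all genes), 3 in cisplatin+ICB against PBS (35.3%) and 2 in cisplatin+ICB against cisplatin (11.9%), and relative to Ptprc 1 in 5-FU against PBS (Flt3, 50.1%) and 3 in 5-FU+ICB against 5-FU (Flt3, Cd209a and Siglech, 64.6%), and there were 7 (5 with all tumors) in cisplatin+ICB against PBS (73.0%) and 5 (4) against cisplatin (67.9%). Models of the compared groups alone gave 1 in 5-FU against PBS (23.4% of all genes) and 0 in cisplatin+ICB against PBS (0%), where no filter (1.76%) and the joined model (4.36%) also gave 0. DESeq2 called 1 gene, Clec9a, in each of 5-FU+ICB against 5-FU, cisplatin+ICB against cisplatin and cisplatin+ICB against ICB. It called 1, Fscn1, in 5-FU+ICB against cisplatin+ICB. With 6 leukocyte genes as the reference, 2 were called in cisplatin+ICB against cisplatin, beside 19.6% of all genes. The causes were not tested.

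Pairs of tumors with the same replicate number had an r over 0.1 in 21 of 66 cases, from −0.629 to 0.665. Whether the numbers pair the tumors was not tested. With the replicate number as a block, 3 genes were called in ICB against PBS (33.7% of all genes), 4 in 5-FU+ICB against PBS (35.8%) and 0 in cisplatin+ICB against PBS (0.533%), and relative to Ptprc 2, 3 and 0 in 5-FU+ICB against PBS (72.5%), cisplatin+ICB against PBS (46.7%) and cisplatin+ICB against cisplatin (0.00561%).

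Leaving out 1 tumor at a time gave 3 to 6 calls in ICB against PBS (3 without PBS 1, 3 or 4 or ICB 2 or 3), 4 to 8 in 5-FU+ICB against PBS (4 without PBS 2 or 5-FU+ICB 5), 0 to 3 in 5-FU+ICB against 5-FU (2 without 5-FU 3, 3 without 5-FU+ICB 2), 0 to 3 in cisplatin+ICB against PBS (3 without cisplatin+ICB 1), 0 to 2 in cisplatin+ICB against cisplatin (2 without cisplatin+ICB 1) and 0 to 4 between the combinations (4 without 5-FU+ICB 2). Relative to Ptprc it gave 6 to 7 in ICB, 2 to 4 in 5-FU+ICB and 2 to 7 in cisplatin+ICB against PBS, 0 to 3 in 5-FU+ICB against 5-FU, 0 to 5 in cisplatin+ICB against cisplatin and 0 to 1 between the combinations. Other comparisons gave 0 throughout. The share of all genes called moved with these fits, from 28.4% to 39.8% in ICB, 30.6% to 48.8% in 5-FU+ICB and 0% to 35.3% in cisplatin+ICB against PBS, 0% to 10.9% in 5-FU+ICB against 5-FU, 0% to 11.9% in cisplatin+ICB against cisplatin and 0.00541% to 11.6% between the combinations. Relative to Ptprc the same shares ran from 68.9% to 79.0%, 67.4% to 84.0%, 44.1% to 73.0%, 0% to 76.3%, 0% to 67.9% and 0.0162% to 35.5%. In 5-FU against PBS the share ran from 7.87% to 25.9% on counts and from 0.0764% to 35.1% relative to Ptprc. With the replicate number as a block it was 18.6% and 0.167%. The joined model called 825 of 18521 genes there on counts. For the log2 ratio of Clec9a to Xcr1, the difference between 5-FU+ICB and PBS ran from 0.55 to 0.88 with 1 tumor left out.

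Over all genes, DESeq2 called 497 in 5-FU+ICB against 5-FU (edgeR 2), 319 against ICB (41), 2148 in cisplatin+ICB against PBS (1087), 668 in 5-FU against cisplatin (67), 1567 between the combinations (55) and 1494 for the interaction of 5-FU with ICB (16).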
